A study of Arabidopsis thaliana with 10 samples.

Results

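The 10 genes described here supply the linolenic acid from which jasmonic acid (JA) is made: 5 lipase genes, DAD1 (AT2G44810), DGL (AT1G05800), PLIP1 (AT3G61680), PLIP2 (AT1G02660) and PLIP3 (AT3G62590), and 5 fatty acid desaturase genes, FAD2 (AT3G12120), FAD3 (AT2G29980), FAD6 (AT4G30950), FAD7 (AT3G11170) and FAD8 (AT5G05580). They were chosen by name for this role with no measured value in the rule, and all 10 were found by gene identifier among the 32833 genes of every table. RNA-seq was carried out on whole Arabidopsis thaliana Col-0 seedlings, grown in long days to an age of 10 days. Set1 is the pilot experiment, with 2 libraries of seedlings treated for 2 h with gaseous methyl jasmonate (Set1_2hJA) and 2 of untreated seedlings (Set1_ctrl). Set2 is the later and larger experiment, with 3 treated (Set2_2hJA) and 3 untreated libraries (Set2_ctrl). The question was which genes respond to JA after 2 h, and here it is asked of the genes that provide its precursor. All groups share the wild-type Col-0 background, each library pools every organ of the seedling, and 2 h was the only treatment time.

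Linolenic acid is made by desaturating oleic acid in steps while it is bound to membrane lipids. FAD2 and FAD3 carry this out in the endoplasmic reticulum (ER), FAD6 and then FAD7 or FAD8 in the plastid. Lipases cut the fatty acid from plastid lipids, and the 13-lipoxygenases (LOX), allene oxide synthase (AOS), allene oxide cyclases (AOC) and OPR3 turn it into the JA skeleton. Genes of those later steps are textbook targets of the JA-responsive transcription factor MYC2, which binds the G-box.

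FAD7 and FAD8 are near copies, and this bears on how their reads were divided. Their coding sequences were 85.3% identical over 1290 aligned bases. In the deposited expected counts, which divide shared reads by estimate, FAD7 was not a whole number in 10 of 10 libraries and FAD8 in 8, while the other 8 genes were whole throughout. Single values of FAD7 and FAD8 are uncertain to that extent. PLIP3 overlaps 2 genes of the opposite strand, AT3G62580 and AT3G09815, by up to 360 bases, and FAD8 overlaps AT5G05590 by 61 bases. The sources do not say if reads were counted by strand, so these 2 genes are uncertain in that respect too.

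The gene starts were set against those of the induced synthesis genes. Among the 250 bases before each gene start, read on both strands, the G-box CACGTG was found for 1 of the 10 genes, PLIP2, and for 1 of 10 genes from LOX to OPR3, AOS. Of 27443 promoter windows of that length in the genome, 6.49% held it. The related letters CACATG stood before 0 of the 10 genes and 3 of the 10 LOX to OPR3 genes, against 11.1% of all windows. The GCC box GCCGCC was found in neither group and in 1.87% of all windows. Both windows with a G-box are shown, with the motif in capitals, as RefSeq TAIR10.1 gives them: PLIP2 at chr1:575086-575335 (minus strand), with the motif starting 134 and 122 bases before the gene, and AOS at chr5:17099596-17099845 (minus strand), with the motif 6 bases before it.
PLIP2: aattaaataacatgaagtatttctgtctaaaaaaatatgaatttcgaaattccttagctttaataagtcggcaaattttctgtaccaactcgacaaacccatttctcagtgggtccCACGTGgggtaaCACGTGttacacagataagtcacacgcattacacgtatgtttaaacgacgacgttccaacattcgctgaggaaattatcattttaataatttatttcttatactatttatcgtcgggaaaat
AOS: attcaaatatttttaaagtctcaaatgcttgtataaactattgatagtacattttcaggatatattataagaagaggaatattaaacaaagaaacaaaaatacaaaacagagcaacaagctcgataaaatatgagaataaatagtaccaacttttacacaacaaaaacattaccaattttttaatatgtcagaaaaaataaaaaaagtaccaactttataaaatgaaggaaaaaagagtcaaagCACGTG
Their 2 genes differed in the data: AOS rose by 3.59 on the log2 scale over both sets (edgeR, adjusted p = 1.6e-06), and PLIP2 had a log2 fold change of -0.36 (edgeR, adjusted p = 0.312). A match of letters is a description and not a site of binding.

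The total of expected counts per library lay between 12147941 and 17200426 in Set1 and between 6333822 and 7774547 in Set2. Libraries stood apart within each set. Plastid-encoded genes took 11.4% of counts in Set1_2hJA replicate 1 and 13.8% in Set1_ctrl replicate 1, against at most 1.87% in the other Set1 libraries. Genes for rRNA, plastid ones included, took 8.98% and 11.6% in the same libraries, against at most 1.32% in the other Set1 libraries. In Set2 plastid-encoded genes took 2.61% in Set2_2hJA replicate 1 and at most 0.377% elsewhere. That library also had counts in 82.1% of 3670 nuclear protein-coding genes of at least 300 bases that were without a count in all of Set1, where the other Set2 libraries had counts in 11.8% to 43.2% of them. The label of whole seedling was checked against markers: 4 leaf photosynthesis genes summed to between 24425 and 46798 TPM, and 4 root genes to between 15.9 and 52.4 TPM. The leaf genes were lower with JA in part: their sums lay between 24425 and 32403 TPM in Set1_2hJA, against 29980 and 46798 TPM in Set1_ctrl, and between 26420 and 33704 TPM in Set2_2hJA, against 33713 and 39244 TPM in Set2_ctrl. At the adjusted p of edgeR 3 of the 4 fell in Set1, 0 in Set2 and 1 over both sets, RCA, by 0.71 on the log2 scale (edgeR, adjusted p = 0.0044). Of the 4 root genes 0 were called in either set alone and 1 fell over both sets, SCR, by 0.51 (edgeR, adjusted p = 0.0059). Seed storage markers summed to 12.8 TPM in Set1_2hJA replicate 1, to 6.85 TPM in Set2_2hJA replicate 1 and to at most 1.58 TPM in the other libraries. Flower and anther markers summed to at most 2.29 TPM except in Set2_2hJA replicate 1, at 10.7 TPM.

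The lipases and the desaturases were expressed on different scales. In TPM, which is scaled to gene length, the 5 desaturases together ranged from 575 to 1199 TPM over the libraries and the 5 lipases from 4.67 to 18.3 TPM. The ratio of the sums was 138 and 115 in Set1_2hJA, against 112 and 124 in Set1_ctrl. It was 57.4, 90.4 and 123 in Set2_2hJA, against 113, 137 and 90.9 in Set2_ctrl. The groups overlapped in both sets, and the lowest ratio was that of Set2_2hJA replicate 1.

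By median TPM the order was FAD2 (365 TPM), FAD6 (354 TPM), FAD7 (157 TPM), FAD8 (91.5 TPM), FAD3 (74.7 TPM), PLIP1 (3.89 TPM), PLIP3 (2.50 TPM), PLIP2 (2.14 TPM), DAD1 (0.115 TPM) and DGL, which was listed at 0 in 7 of 10 libraries. Some neighbours could not be told apart: FAD2 was above FAD6 in 7 of 10 libraries, FAD8 above FAD3 in 6, and PLIP2 above PLIP3 in 4. Within the lipases PLIP1 was above PLIP2 in 7 of 10 libraries and above PLIP3 in 8, PLIP2 above DAD1 in 9 and DAD1 above DGL in 7. Otherwise the order of the desaturases held in every library, with FAD2 and FAD6 above FAD7, FAD7 above FAD8 and FAD3, and these above all lipases.

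**Figure D1:**
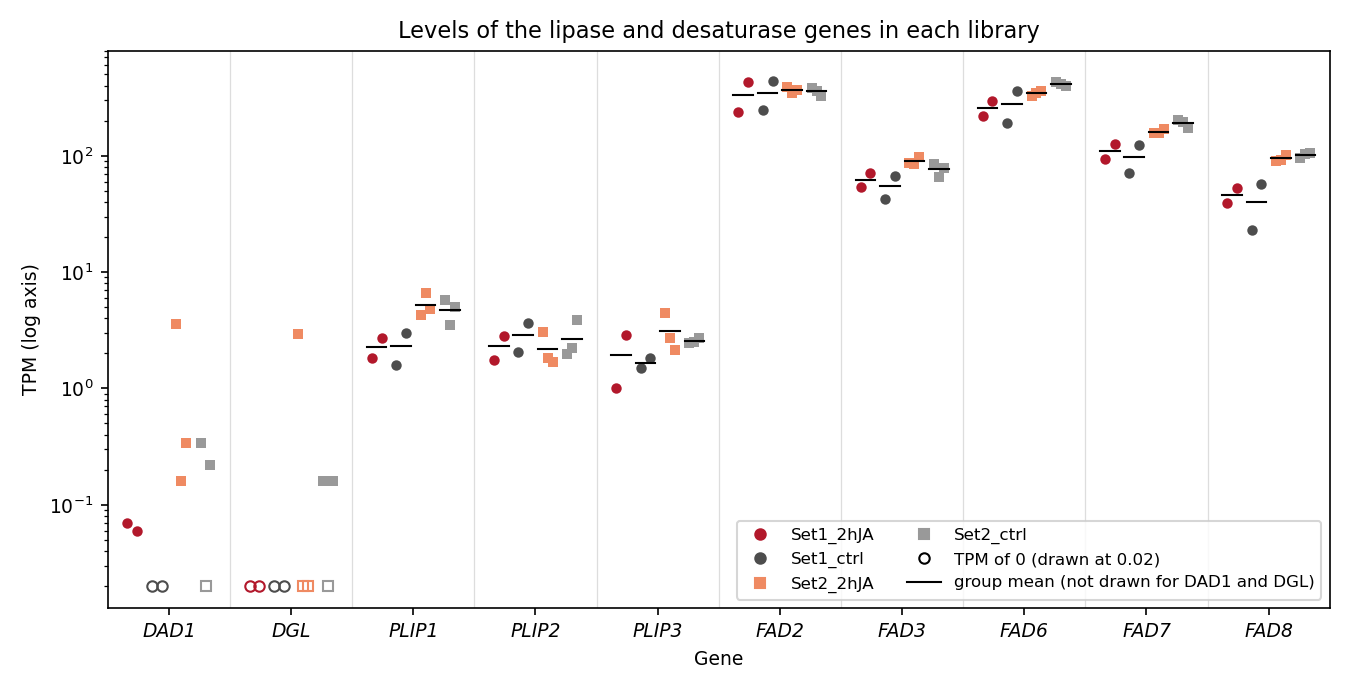
Level of each gene in each library, in TPM on a log axis. Points are libraries of Set1_2hJA, Set1_ctrl, Set2_2hJA and Set2_ctrl, bars are group means, and open points are values of 0. Desaturases lie between 23.0 and 442 TPM and the PLIP genes between 1.01 and 6.61 TPM. In Set2 the treated FAD6 libraries lie at 364 TPM or below and the untreated ones at 399 TPM or above.

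No lipase or desaturase gene passed the test after 2 h of JA in either set. DAD1 and DGL fell below the filter on low counts, which leaves 8 of 10 genes tested. Of these 8, edgeR called 0 at an adjusted p of at most 0.05 in Set1, in Set2 and over both sets, so also 0 with a change of at least 2-fold. At an unadjusted p of at most 0.05 there were 0 in Set1, 0 in Set2 and 1 over both sets, FAD6. Of all genes tested by edgeR, 19.96% in Set1, 18.21% in Set2 and 25.98% over both sets reached this unadjusted p. A count of 1 of 8 over both sets was therefore not above the background. At the adjusted p DESeq2 called 1 over both sets, FAD6, and limma called 0. The share of all genes that DESeq2 called at this threshold was not counted.

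The background for these counts is the share of all tested genes. In Set1 6.57% of genes were called at the adjusted p and 5.14% also with 2-fold change. In Set2 these shares were 5.74% and 2.54%, and over both sets 13.6% and 4.03%, the last made up of 2.63% induced and 1.4% repressed. With shares of this size, 0 of 8 lies near the background. Their log2 fold changes had a median of -0.12 in Set1, -0.021 in Set2 and -0.034 over both sets, beside -0.024, 0.012 and 0.015 for all genes tested. In whole seedlings, fewer cells that express a gene and less RNA per cell cannot be told apart.

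**Figure D2:**
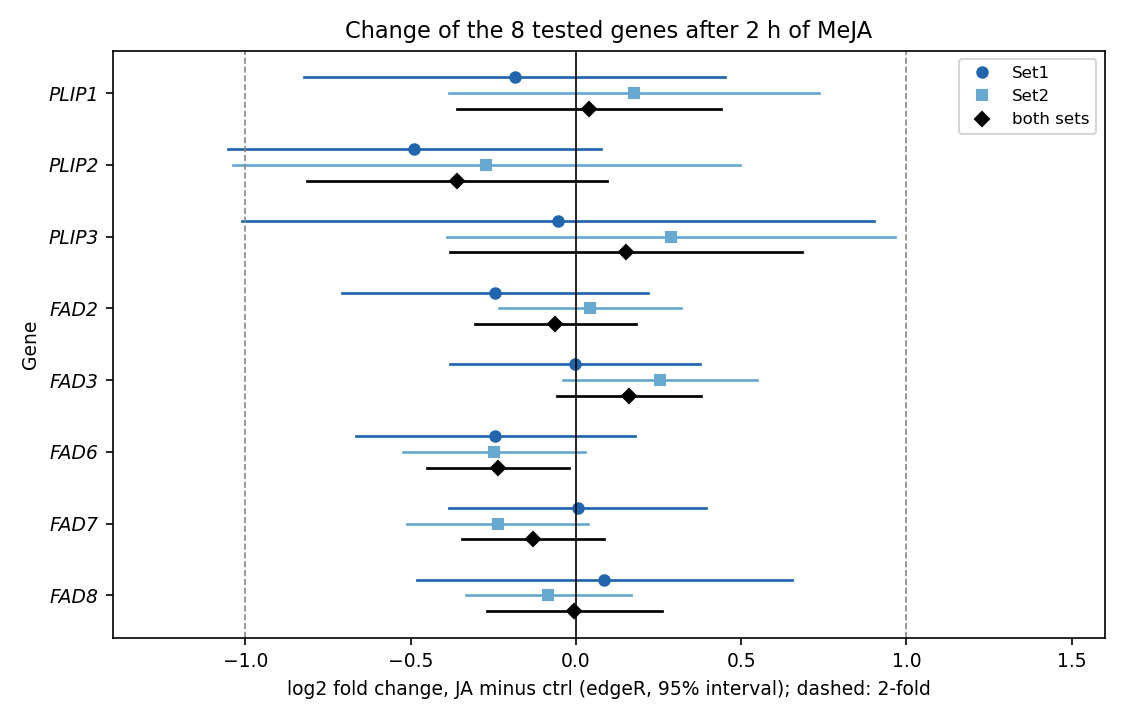
Log2 fold change, JA minus ctrl, with its 95% interval from edgeR for the 8 tested genes. Circles are Set1, squares Set2 and diamonds the fit of both sets, and dashed lines mark a 2-fold change. The diamonds lie between -0.36 for PLIP2 and 0.16 for FAD3, and no interval of the fit of both sets reaches a dashed line.

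Among the lipases, DAD1 is the phospholipase that starts JA synthesis in the stamen. It had 2 and 1 counts in Set1_2hJA, against 0 and 0 in Set1_ctrl. It had 37, 1 and 2 counts in Set2_2hJA, against 2, 0 and 2 in Set2_ctrl. A single treated library, replicate 1, therefore held 37 of the 40 counts of Set2_2hJA, and every other value was within the 3 counts taken as the floor of detection.

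DGL, the relative of DAD1 studied for JA synthesis in leaves, showed the same library. It had 0 counts in each Set1 library. It had 22, 0 and 0 counts in Set2_2hJA, against 1, 0 and 1 in Set2_ctrl. Neither gene was above the floor in replicates 2 and 3 of Set2_2hJA.

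Set2_2hJA replicate 1 is the library with counts in genes that were silent in Set1. Per kilobase of effective length, DAD1 had 20.2 and DGL 16.4 counts there, while the 3670 silent genes averaged 9.90. Of those silent genes, 6.95% were at or above DAD1 and 11.8% at or above DGL. All 4 flower and anther markers were highest in this library as well, AMS at 2.53 TPM and AP3 at 3.27 TPM among them. The part of this background in the DAD1 and DGL counts was not tested. When the filter on low counts was dropped, DAD1 had an edgeR adjusted p of 0.348 in Set2, and 0.960 without that library. For DGL these values were 0.561 and 0.719.

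**Figure D3:**
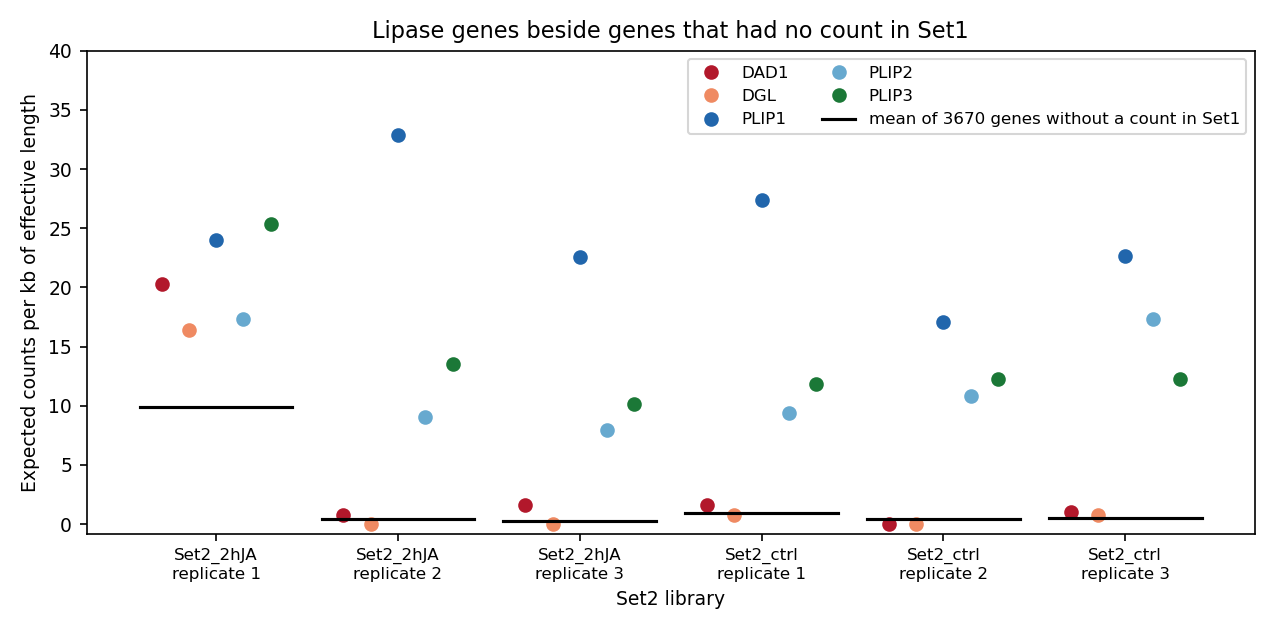
Expected counts per kilobase of effective length for the 5 lipase genes in each Set2 library, treated libraries on the left. Black bars are the mean of the 3670 genes that had no count in Set1. In Set2_2hJA replicate 1 the bar stands at 9.90, with DAD1 at 20.2 and DGL at 16.4, and in the other libraries both genes lie at 1.62 or below.

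The PLIP genes encode plastid lipases with a preference for phosphatidylglycerol or galactolipids. PLIP1, which is known for its part in seed oil, had 4.76 and 5.20 CPM (counts per 1e6 of the scaled library) in Set1_2hJA, against 4.96 and 6.23 CPM in Set1_ctrl. It had 6.56, 10.9 and 8.16 CPM in Set2_2hJA, against 9.04, 5.64 and 7.84 CPM in Set2_ctrl. The groups overlapped in both sets, and over both sets the log2 fold change was 0.04 ± 0.18 (SE; edgeR, adjusted p = 0.922).

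PLIP2, a galactolipase that responds to abscisic acid, had 5.22 and 6.10 CPM in Set1_2hJA, against 7.26 and 8.46 CPM in Set1_ctrl. It had 5.16, 3.36 and 3.10 CPM in Set2_2hJA, against 3.51, 4.03 and 6.60 CPM in Set2_ctrl. The treated libraries were below the untreated ones in Set1 and overlapped with them in Set2. In Set1 23.6% of all genes had treated libraries below every untreated one, so this order was common. The Set2 overlap came from Set2_2hJA replicate 1 alone, where 10.1% of the genes silent in Set1 were at or above PLIP2 per kilobase. The log2 fold change in Set2 was -0.27 (edgeR, adjusted p = 0.734). It was -0.55 without this library and 0.050 without Set2_ctrl replicate 3. Over both sets the log2 fold change was -0.36 ± 0.21 (SE; edgeR, adjusted p = 0.312), with a 95% interval from -0.81 to 0.09. It was the largest estimate among the 8 genes and one of the least precise.

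PLIP3, the third of these lipases and also known to respond to abscisic acid, had 2.57 and 5.26 CPM in Set1_2hJA, against 4.53 and 3.56 CPM in Set1_ctrl. It had 6.45, 4.31 and 3.38 CPM in Set2_2hJA, against 3.78, 3.89 and 3.99 CPM in Set2_ctrl. The high Set2 value came from Set2_2hJA replicate 1, where PLIP3 had 25.3 counts per kilobase, against 13.5 and 10.1 in the other treated libraries. The log2 fold change in Set2 was 0.29 (edgeR, adjusted p = 0.676) with this library and -0.03 without it. Over both sets it was 0.15 ± 0.24 (SE; edgeR, adjusted p = 0.752).

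FAD2 makes linoleic acid in the ER. It had 458 and 596 CPM in Set1_2hJA, against 572 and 659 CPM in Set1_ctrl. It had 423, 413 and 438 CPM in Set2_2hJA, against 447, 424 and 365 CPM in Set2_ctrl. The groups overlapped in both sets, and the log2 fold change over both was -0.06 ± 0.11 (SE; edgeR, adjusted p = 0.777).

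FAD3 makes linolenic acid in the ER. It had 89.9 and 85.5 CPM in Set1_2hJA, against 86.0 and 87.3 CPM in Set1_ctrl. It had 82.8, 91.4 and 102 CPM in Set2_2hJA, against 87.1, 67.3 and 76.7 CPM in Set2_ctrl. The Set2 groups overlapped through replicate 1 of each group, while in TPM they were just apart, at 85.7 or more in Set2_2hJA and 84.9 or less in Set2_ctrl. By CPM 10.8% of all genes had treated Set2 libraries above every untreated one, and the share by TPM was not counted. The log2 fold change over both sets was 0.16 ± 0.10 (SE; edgeR, adjusted p = 0.349), and the coefficient of variation over all libraries, 10.8%, was the smallest of the 8 genes.

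FAD6 provides linoleic acid in the plastid, upstream of FAD7 and FAD8. It had 414 and 405 CPM in Set1_2hJA, against 428 and 528 CPM in Set1_ctrl. It had 348, 402 and 422 CPM in Set2_2hJA, against 488, 467 and 434 CPM in Set2_ctrl. In CPM every treated library was below every untreated one in both sets, an order that 7.1% of all genes showed in both sets and 11.6% in Set2. FAD6 was the single one of the 8 genes with it. In TPM the Set1 groups overlapped, between 221 and 298 in Set1_2hJA and between 190 and 364 in Set1_ctrl. The lower value of each group was that of replicate 1, a library with high plastid and rRNA shares. TPM have a fixed total per library, so such shares lower the TPM of other genes.

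The size of this difference was small. The log2 fold change of FAD6 was -0.24 in Set1 (edgeR, adjusted p = 0.534) and -0.25 in Set2 (edgeR, adjusted p = 0.332). With 1 library left out the Set1 value ranged from -0.38 to -0.081, the last without Set1_ctrl replicate 2, and limma on log2(TPM + 1) gave -0.036. Over both sets it was -0.24 ± 0.098 (SE), a level 15.1% lower in treated seedlings, with a 95% interval from -0.45 to -0.022. The edgeR unadjusted p was 0.033 and the adjusted p 0.147, above the threshold. DESeq2 gave -0.24 with an adjusted p of 0.0392, and over all alternatives the adjusted p of FAD6 ranged from 0.0392 to 0.711. Without Set2_2hJA replicate 1 the log2 fold change was -0.19 (edgeR, adjusted p = 0.214), and without the plastid, mitochondrial and rRNA genes it was -0.24 (edgeR, adjusted p = 0.113). The sum of the 4 leaf photosynthesis markers was lower in the treated Set2 libraries, at the nearest pair by little (33704 against 33713 TPM). Of these markers RCA alone was lower in each treated Set2 library, and edgeR called 0 of them in Set2. Their part in the FAD6 values, and that of the root marker SCR given above, was not tested.

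FAD7 is the main plastid enzyme for linolenic acid in leaves. It had 203 and 198 CPM in Set1_2hJA, against 186 and 208 CPM in Set1_ctrl. It had 192, 210 and 227 CPM in Set2_2hJA, against 265, 257 and 218 CPM in Set2_ctrl. The groups overlapped in both sets, in Set2 through a single pair of libraries, and in TPM the Set2 groups were apart, at 169 or less in Set2_2hJA and 174 or more in Set2_ctrl. By CPM 11.6% of all genes had treated Set2 libraries below every untreated one, and the share by TPM was not counted. The log2 fold change was 0.0048 in Set1 (edgeR, adjusted p = 0.994), -0.24 in Set2 (edgeR, adjusted p = 0.351) and -0.13 ± 0.099 over both (SE; edgeR, adjusted p = 0.452).

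FAD8 is the second plastid enzyme for this step and is known for its function in the cold. It had 70.6 and 69.0 CPM in Set1_2hJA, against 50.0 and 79.8 CPM in Set1_ctrl. It had 92.5, 104 and 114 CPM in Set2_2hJA, against 105, 113 and 111 CPM in Set2_ctrl. The groups overlapped in both sets, and the log2 fold change over both was -0.0048 ± 0.12 (SE; edgeR, adjusted p = 0.989), with a 95% interval from -0.27 to 0.26.

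The intervals over both sets give the precision of these comparisons. For the 5 desaturases the intervals lay between -0.45 and 0.38 on the log2 scale. For the 3 PLIP genes, with at most 102 counts in a library, they lay between -0.81 and 0.68. A change of 2-fold is thus outside the interval of each of the 8 genes and smaller changes are inside it.

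Whether the response of a gene differed between the experiments was asked with the set by treatment interaction. The differences in log2 fold change, Set2 minus Set1, ranged from -0.26 for FAD7 to 0.34 for PLIP1, with edgeR adjusted p from 0.869 to 0.995. At an unadjusted p of at most 0.05 there were 0 of the 8 genes. Of all 20213 genes tested, 0% were called by edgeR (1438 at the unadjusted p), with 61 genes called by edgeR with the replicate block, 148 by DESeq2 and 1 by limma. None of the 8 genes was called with the block.

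The levels in untreated seedlings moved more between the sets than with JA for some genes. FAD8 was 1.69 times as high in Set2_ctrl as in Set1_ctrl. The lowest Set2_ctrl library was at 105 CPM and the Set1_ctrl libraries at 50.0 and 79.8 CPM. FAD7 was 1.25 times as high, at 218 CPM or more in Set2_ctrl and 208 CPM or less in Set1_ctrl. The share of all genes with every Set2_ctrl library above every Set1_ctrl library was not counted. FAD2 and PLIP2 had ratios of 0.669 and 0.600. The sets differ in experiment and depth, which cannot be told apart, and no test was made.

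Ratios between related genes were taken within each library, per length, to ask whether JA shifted the balance of isozymes. Of 6 ratios, 0 passed the exact permutation test over the libraries, two-sided within sets, whose smallest p for these 120 arrangements is 0.0167. FAD8 to FAD7, the paired plastid enzymes, was 0.416 and 0.416 in Set1_2hJA, against 0.321 and 0.458 in Set1_ctrl. It was 0.574, 0.594 and 0.602 in Set2_2hJA, against 0.475, 0.523 and 0.607 in Set2_ctrl. These groups overlapped, and the mean difference was 0.14 on the log2 scale (exact permutation p = 0.3, adjusted over 6 ratios 0.36). It ranged from 0.052 without Set1_ctrl replicate 1 to 0.22 without Set1_ctrl replicate 2.

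The ratio of FAD6 to FAD2 compares the same desaturation step in the plastid and the ER. It was 0.929 and 0.698 in Set1_2hJA, against 0.768 and 0.823 in Set1_ctrl. It was 0.846, 0.9999 and 0.988 in Set2_2hJA, against 1.12, 1.13 and 1.22 in Set2_ctrl. The treated libraries lay below the untreated ones in Set2 and on both sides of them in Set1. By CPM 11.6% of all single genes had treated Set2 libraries below every untreated one. The share of ratios between other genes with this order was not counted. The mean difference was -0.17 on the log2 scale (exact permutation p = 0.15, adjusted over 6 ratios 0.275). Without Set1_2hJA replicate 1, 1 of the libraries rich in plastid transcripts, it was -0.26 (exact permutation p = 0.0167, before adjustment). That is the smallest p possible with this library left out. Without Set1_ctrl replicate 1, also rich in plastid transcripts, it was -0.21 (exact permutation p = 0.167, before adjustment). The remaining left-out libraries gave an exact permutation p of up to 0.35.

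The plastid to ER balance of the next step was taken as the ratio of FAD7 and FAD8 to FAD3. It was 2.47 and 2.54 in Set1_2hJA, against 2.22 and 2.72 in Set1_ctrl. It was 2.85, 2.90 and 2.78 in Set2_2hJA, against 3.52, 4.51 and 3.54 in Set2_ctrl. The Set2 groups did not overlap, the Set1 groups did, and the mean difference was -0.25 on the log2 scale (exact permutation p = 0.0667, adjusted over 6 ratios 0.275). How common such a separation in Set2 is among ratios of other genes was not counted. Without Set1_ctrl replicate 1 it was -0.33 (exact permutation p = 0.0167, before adjustment), and without Set2_ctrl replicate 2 it was -0.16 (exact permutation p = 0.15, before adjustment). For all plastid to all ER desaturases the mean difference was -0.15 (exact permutation p = 0.183, adjusted 0.275), and without Set1_2hJA replicate 1 it was -0.24 (exact permutation p = 0.0333, before adjustment). With any other library left out, the exact permutation p of this ratio lay between 0.133 and 0.35, before adjustment.

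**Figure D4:**
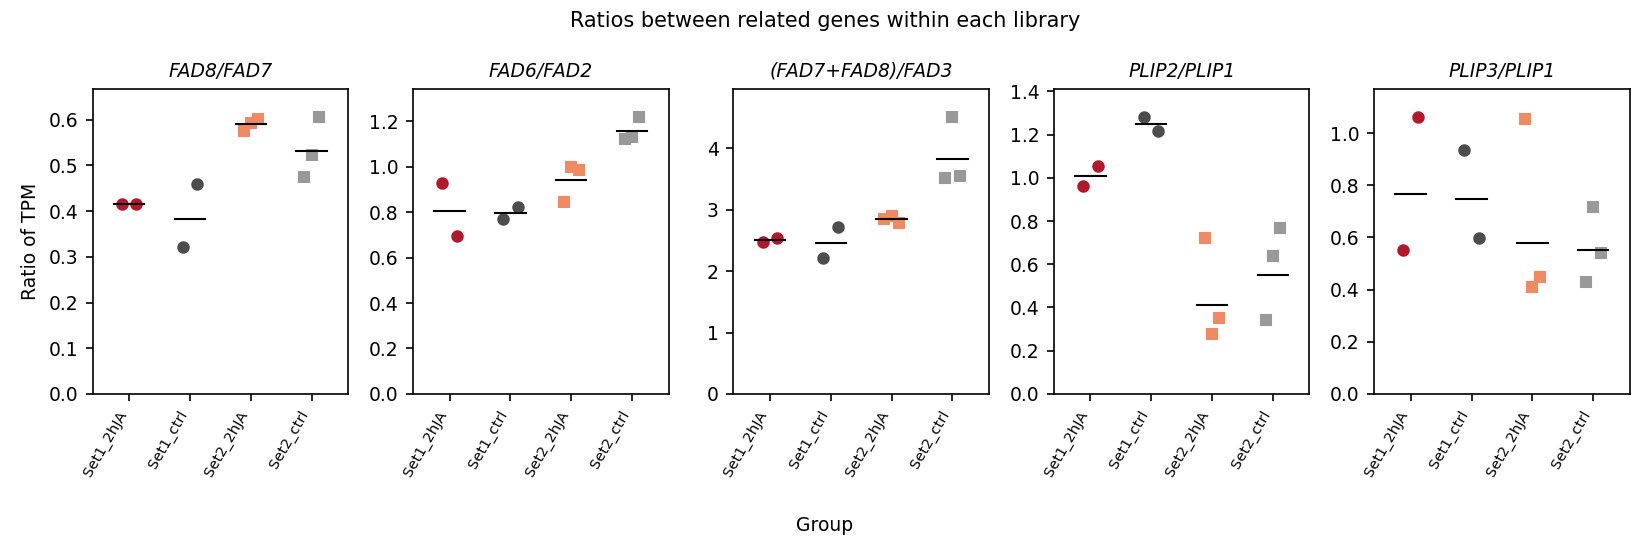
Ratios of TPM between related genes in each library, on axes from 0, with treated groups left of untreated ones within each set. Points are libraries and bars are the means of the log2 ratios put back on the linear scale. In Set2 the ratio of FAD6 to FAD2 is at most 0.9999 in treated and at least 1.12 in untreated libraries, and in Set1 the groups overlap. How often ratios of other genes separate so in Set2 was not counted.

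Among the PLIP genes, PLIP2 to PLIP1 was 0.962 and 1.06 in Set1_2hJA, against 1.28 and 1.22 in Set1_ctrl. It was 0.721, 0.275 and 0.353 in Set2_2hJA, against 0.343, 0.636 and 0.768 in Set2_ctrl. The mean difference was -0.38 on the log2 scale (exact permutation p = 0.183, adjusted over 6 ratios 0.275), and for PLIP3 to PLIP1 it was 0.06 (exact permutation p = 0.85). Both rest on low counts and moved widely between libraries of 1 group.

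The later steps of JA synthesis rose strongly in the same libraries. Of 10 genes from the 13-lipoxygenases to OPR3, all tested, 8 rose at least 2-fold over both sets and 0 fell, with a median log2 fold change of 3.25. In each set alone 8 of the 10 rose as well, with medians of 3.35 in Set1 and 3.13 in Set2. LOX2, among the 13-lipoxygenases that oxidise the linolenic acid which the genes above provide, rose by 3.09 ± 0.21 on the log2 scale (SE; edgeR, adjusted p = 3.3e-06).

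Further down, AOC1, an allene oxide cyclase, rose most, by 4.21 (edgeR, adjusted p = 3.1e-07). OPR3, the reductase of the peroxisome, rose by 4.10 (edgeR, adjusted p = 7.0e-07). The others that passed were LOX3 (3.39), LOX4 (3.33), AOC2 (3.16), AOC3 (1.48) and AOS, given above. AOC4, named after its values were seen, rose by 0.88 (edgeR, adjusted p = 7.0e-04), under 2-fold, and LOX6 had a log2 fold change of 0.42 (edgeR, adjusted p = 0.0553).

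Some other acyl desaturases did change. Of 11 tested, 0 rose and 2 fell at least 2-fold over both sets, with a median log2 fold change of -0.040. FAD4 (AT4G27030, listed as FADA), which desaturates plastid phosphatidylglycerol, fell by 1.15 ± 0.10 (SE; edgeR, adjusted p = 1.9e-05). ADS1, a desaturase of the ADS family, fell by 1.32 ± 0.23 (SE; edgeR, adjusted p = 0.00223). Both fell in each set alone, FAD4 by 1.32 and 1.05 and ADS1 by 1.16 and 1.45 in Set1 and Set2. Each set alone also had 1 gene of the list induced at least 2-fold, both named after their values were seen. In Set1 it was FTM1, a stearoyl-ACP desaturase, which rose by 3.14 (edgeR, adjusted p = 0.035) and had 0.081 in Set2 (edgeR, adjusted p = 0.957). In Set2 it was ADS2, which rose by 1.13 (edgeR, adjusted p = 0.011).

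At the adjusted p without the fold limit, 1 of the 11 rose and 3 fell. The additional genes, named after their values were seen, were FAD5 and ADS2. FAD5, the palmitoyl desaturase of monogalactosyl lipids, fell by 0.71 (edgeR, adjusted p = 0.00162). ADS2, known for its function in the cold, rose by 0.999 on the log2 scale (edgeR, adjusted p = 6.8e-04), just under the 2-fold limit. The lower leaf markers and the lower root marker SCR given above come from the same libraries. The part of these markers in the falls of FAD4, ADS1 and FAD5 was not tested. A difference in response between these genes and FAD2, FAD3, FAD6, FAD7 or FAD8 was not tested.

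The lipid genes around the lipases and desaturases gave few calls. Of 5 other class I phospholipases related to DAD1, 3 were tested and 0 called over both sets at the adjusted p. The smallest adjusted p there were those of AT1G51440, with a log2 fold change of 0.44 (edgeR, adjusted p = 0.214), and AT2G30550, with 0.23 (edgeR, adjusted p = 0.418). Among 7 genes of galactolipid and sulfolipid synthesis, 0 passed with 2-fold change, 1 rose and 1 fell at the adjusted p. MGD1, which makes monogalactosyl lipid in the plastid envelope, rose by 0.55 (edgeR, adjusted p = 0.0282). DGD1, which makes digalactosyl lipid from it, fell by 0.41 on the log2 scale (edgeR, adjusted p = 0.0236).

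The remaining lists had 0 calls in edgeR at the adjusted p. They were 6 genes of plastid acyltransferases and lipid import, 5 of phosphatidylcholine editing in the ER and 13 of plastid fatty acid synthesis, with medians of -0.11, -0.0078 and -0.048 on the log2 scale. The smallest adjusted p in each were 0.379 for AT3G06960 (-0.14), 0.362 for ROD1 (-0.24) and 0.101 for FaTA (0.23), all from edgeR.

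**Figure D5:**
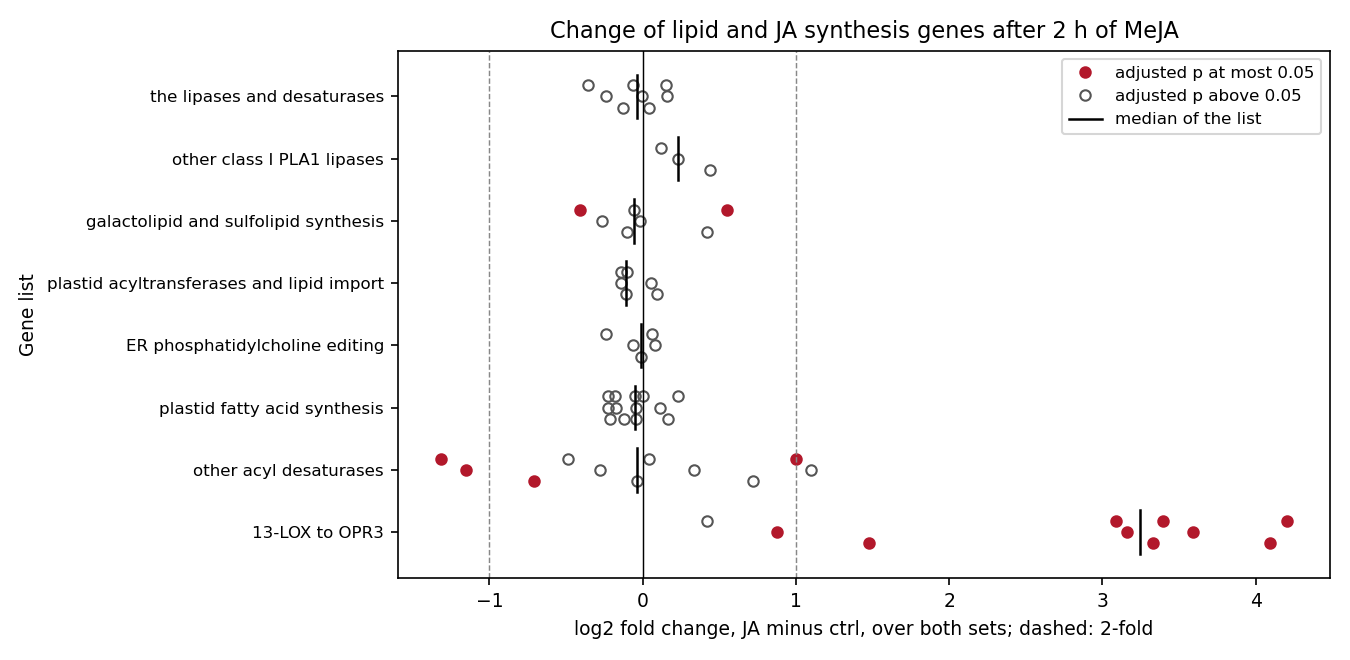
Log2 fold change over both sets, JA minus ctrl, of the lipases and desaturases (8 tested genes) and of 7 lists of related genes. Filled points passed the adjusted p of 0.05, open points did not, bars are medians and dashed lines mark 2-fold. The 8 genes lie between -0.36 and 0.16, and the list from 13-LOX to OPR3 has its median at 3.25.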

How the data were processed

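The reads of 10 stranded poly(A) libraries were aligned by the authors to TAIR10 with STAR (version 2.7.5a) and transcripts quantified with RSEM (version 1.3.3), as the study's methods state. The deposited tables give, for each library and 32833 genes, RSEM expected counts, which are estimated counts that need not be whole. They also give TPM, which the authors scaled to effective length, and the effective length itself. The authors also deposited an edgeR (version 3.36.0) comparison for each set, with fold changes and p-values, which was not used. The study calls the libraries biological replicates, and groups were taken from the sample titles.

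The main test was that of edgeR (version 4.0.16; R version 4.3.3) on rounded expected counts: filterByExpr by group, TMM scaling and the quasi-likelihood test, fitted on all genes, with Benjamini-Hochberg adjustment. A gene was called at an adjusted p of at most 0.05, and separately also with a change of at least 2-fold. Each set was fitted alone, then all 10 libraries with set as covariate, then with a set by treatment interaction. Intervals are 95% intervals of the fit. CPM are counts per 1e6 of the TMM-scaled total. A total of 3 counts in a library was taken as the floor, and counting error alone is covered by it. DESeq2 (version 1.42.0) and limma (version 3.58.1) on log2(TPM + 1) or log2(TPM + 0.1) were alternatives, with other scalings, no filter, a replicate block and each library left out. Ratios of TPM were compared by an exact permutation test over libraries within sets.

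The fits were tested on simulated data with planted changes larger than 2-fold. Changes as small as that of FAD6 were not simulated. The 10 genes and the lists were chosen with earlier results of these data known. All 10 genes were named, and from each list the genes called at 2-fold over both sets, otherwise the 2 with the smallest adjusted p (in the last 3 lists the first of these is printed). Genes with a pattern like that of a called gene were to be named, and as none of the 10 genes was called, there are none.

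Libraries with the same replicate number deviated together from their group means, with correlations over genes of 0.24, 0.22 and 0.24 for the pairs of Set2 and 0.43 for Set1, where 2 libraries a group give a single value, and the numbers were taken to pair the libraries. The main edgeR fits and the permutation tests did not use this pairing, which entered only through the replicate block. Replicate numbers follow the sample titles. The names of the deposited tables give the 2 Set1_ctrl libraries each other's number, by which the Set1 correlation would be -0.43 and Set1_ctrl replicates 1 and 2 would change places. The deposited counts of no pair of libraries were identical. Coordinates, promoter windows and coding sequences came from RefSeq TAIR10.1 (Biopython version 1.88), in which 99.3% of 21633 genes with a single transcript had the deposited length.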

Additional observations from a re-analysis of the deposited data

How the results depend on the processing

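No lipase or desaturase gene was called under any alternative, with 1 exception: DESeq2 called 1 gene, FAD6, over both sets. The share of all genes that DESeq2 called at the adjusted p alone was not counted. Of 256 fold changes of single genes under other settings, 237 kept their direction and their side of the threshold, 18 changed sign and 1 (FAD6) passed it. Of 240 with a library left out, 214 kept both and 26 changed sign. The smallest adjusted p were 0.0392 and 0.108. With 1 library left out, PLIP3 in Set1 went from -0.055 to as high as 0.40, and FAD8 in Set1 from 0.085 to -0.20. The sign changes of single genes under other settings ended at 0.21 or less on the log2 scale. In Set1, with library totals PLIP3 was 0.13 and FAD3 0.11. FAD3 was 0.0067 with the DESeq2 size factors, 0.0067 with DESeq2, 0.0033 without a filter and 0.018 without plastid, mitochondrial and rRNA genes. With limma on log2(TPM + 1) PLIP1, PLIP3 and FAD3 were 0.0021, 0.075 and 0.20, and with log2(TPM + 0.1) 0.015, 0.057 and 0.21. Over both sets FAD8 was 0.019 with library totals, 0.0060 with the replicate block, 0.068 with limma on log2(TPM + 1) and 0.071 on log2(TPM + 0.1), where FAD2 was 0.00068 and 0.00067. The difference of medians for PLIP3 to PLIP1 was -0.15. The cause was not tested.

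The number of genes called 2-fold in Set1 was 1033, and 672 with limma on log2(TPM + 1). The number called for the interaction was 0, and 148 with DESeq2, 79 without a filter, 61 with the replicate block, 1 with either limma fit and 6 without plastid, mitochondrial and rRNA genes. The replicate block changed no call of a lipase or desaturase gene, and with it the 2-fold counts were 1368 in Set1, 549 in Set2 and 836 over both sets, against 1033, 489 and 814 without it.

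With 1 library left out, the Set1 count ranged from 668 (without Set1_2hJA replicate 2) to 1402, the Set2 count (489) from 306 (without Set2_ctrl replicate 2) to 492 and the interaction count from 0 to 9 (without Set2_2hJA replicate 1). On the log2 scale the ranges were -0.67 to 0.40 for PLIP3, -0.0039 to 0.032 for FAD3, -0.062 to 0.089 for FAD7 and -0.20 to 0.46 for FAD8 in Set1. In Set2 they were -0.039 to 0.34 for PLIP1, -0.55 to 0.050 for PLIP2, -0.027 to 0.47 for PLIP3 and -0.035 to 0.11 for FAD2. Over both sets they were -0.094 to 0.13 for PLIP1, -0.026 to 0.31 for PLIP3, -0.12 to 0.085 for FAD8 and -0.12 to 0.014 for FAD2. For the interaction they were -0.073 to 0.52 for PLIP2, -0.11 to 0.93 for PLIP3, -0.19 to 0.12 for FAD6 and -0.57 to 0.11 for FAD8. The ratios ranged from -0.26 to -0.11 for FAD6 to FAD2, -0.24 to -0.10 for all plastid to all ER desaturases, -0.19 to 0.22 for PLIP3 to PLIP1, 0.052 to 0.22 for FAD8 to FAD7, -0.33 to -0.16 for FAD7 and FAD8 to FAD3, and -0.60 to -0.21 for PLIP2 to PLIP1. The fits of DAD1 and DGL without filter and without Set2_2hJA replicate 1 were chosen after seeing the data. DAD1 and DGL lie at the limit of the depth in 9 of 10 libraries.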
